A study of Rattus norvegicus with 8 samples.

Results

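A set of 9 genes of the pathway that runs from phosphoinositide 3-kinase (PI3K) through Akt to mTOR was followed in castrated rats after testosterone: Pik3ip1, Pik3r1, Pik3ca, Akt1, Akt2, Irs1, Rps6kb1, Eif4ebp1 and Rheb. They were chosen by name: every gene spot whose gene name in the array files equals one of these symbols was taken, which gave 15 probes for 9 genes out of 30367 probes and 26247 genes on the array. Of these, 12 probes and 8 genes were bright enough to be tested, out of 12061 probes and 10872 genes. A probe had to be well above background, as the scanner software calls it, on at least 3 of 4 arrays in at least 1 of 4 RNA groups. Akt1 alone had no probe past that filter.

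The data were 8 Agilent arrays, each with 2 colours, of adult male Wistar rats, aged 120 ± 12 days per the labels, all of them castrated. On each array, RNA from rats given a single subcutaneous dose of testosterone propionate (4 mg/kg, dissolved in corn oil) was set against RNA labelled as control, 4 arrays at 8 h and 4 arrays at 24 h. The dyes were swapped on 2 of the 4 arrays at each time. The labels give the controls no agent other than "control", so what they were injected with is not known here, nor is it stated whether an RNA sample came from 1 rat or from several. The series title names muscle atrophy, while the sample labels speak of castrated rat cells (C3d) and name no muscle. Of 13 markers of skeletal muscle fibres, such as the actin Acta1 and the creatine kinase Ckm, 11 were measured, and all 11 were well above background in both channels of every array.

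In the pathway, insulin and insulin-like growth factors bind receptors that phosphorylate docking proteins such as Irs1. These recruit PI3K, a regulatory subunit (such as Pik3r1) bound to a catalytic one (such as Pik3ca), and the lipid it makes draws Akt to the membrane. Akt relieves the brake that the TSC complex puts on the small GTPase Rheb, Rheb switches on mTOR complex 1, and that complex phosphorylates S6 kinase (Rps6kb1) and the translation inhibitor 4E-BP1 (Eif4ebp1), a route known for promoting protein synthesis and growth of muscle fibres. Much of this signalling runs through phosphorylation, which arrays of RNA do not measure.

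At 24 h, 2 of the 8 measured genes passed the test (adjusted p under 0.05 in limma, adjusted over all 10872 genes), against 7.05 percent of all genes. The genes were chosen with earlier results of these data known, so setting these shares side by side is no test of the set. Pik3ip1, which codes for a membrane protein that binds PI3K and restrains it, fell to a level 3.49-fold lower than in controls, and Rps6kb1 rose 1.33-fold. The other 6 (Pik3r1, Pik3ca, Akt2, Irs1, Eif4ebp1 and Rheb) did not pass, with log2 ratios of testosterone over control between -0.11 and 0.27. At 8 h, 0 of the 8 passed in limma, where 0.0276 percent of all genes did. At an unadjusted p under 0.05 there was 1 of the 8, Pik3ip1, while 17.1 percent of all genes reached that. The median log2 ratio of the 8 genes was -0.02 at 8 h and 0.03 at 24 h, beside -0.01 and 1.3e-05 over all genes tested.

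The promoters of the 2 genes that passed at 24 h are shown from 250 bases before to 30 bases after the annotated start, taken from RefSeq with the assembly GRCr8. Promoters of 8 of the 9 genes were matched, all but Eif4ebp1. Here 3 motifs were searched on both strands in windows of 300 bases: the forkhead core GTAAACA, the steroid receptor half-site AGAACA, and the full androgen response element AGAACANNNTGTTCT, which itself contains the half-site. Capitals mark the motif letters. Pik3ip1 lies on the plus strand at chr14:82428065-82428344 and Rps6kb1 on the minus strand at chr10:71865182-71865461.
Pik3ip1 promoter: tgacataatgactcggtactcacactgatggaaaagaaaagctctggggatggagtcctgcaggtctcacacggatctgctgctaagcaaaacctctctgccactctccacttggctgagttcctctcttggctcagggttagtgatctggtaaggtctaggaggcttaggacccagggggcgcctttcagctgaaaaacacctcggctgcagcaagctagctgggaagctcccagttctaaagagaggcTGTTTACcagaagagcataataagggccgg
Rps6kb1 promoter: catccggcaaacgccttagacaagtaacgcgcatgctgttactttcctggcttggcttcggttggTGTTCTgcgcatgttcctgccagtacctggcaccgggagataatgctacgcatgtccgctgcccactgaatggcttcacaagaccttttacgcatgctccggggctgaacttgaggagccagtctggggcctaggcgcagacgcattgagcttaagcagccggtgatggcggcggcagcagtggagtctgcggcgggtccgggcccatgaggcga
The Pik3ip1 window holds the forkhead core on the opposite strand over bases 1 to 7 of the transcript, and the Pik3ca window holds it at -157 to -151, while 3.78 percent of all 33469 promoters hold it. The Rps6kb1 window holds the half-site on the opposite strand at -185 to -180. The half-site is also in the windows of Akt2 and Pik3ca and in 20.7 percent of all promoters. The full element is in 0.0149 percent of promoters and in 0 of the 8 windows of these genes. A match describes the letters of the window only, since no binding was measured.

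Pik3ip1 was read by 1 probe (A_64_P019280; chr14:83967766-83967825, build rn4 per the array files), which was well above background in all 16 channels. At 8 h the log2 channel levels were 10.08, 9.38, 9.92 and 9.68 in the controls and 8.97, 8.64, 9.24 and 9.01 in the treated samples of the same 4 arrays. At 24 h they were 9.49, 9.44, 8.98 and 9.32 in the controls and 7.23, 7.70, 7.60 and 7.48 in the treated samples. Every treated sample lay below every control sample at both times, and the treated samples at 24 h lay below all those at 8 h. Such separation of treated and control levels was seen for 5.76 percent of genes at 8 h and 11.4 percent at 24 h; among the 8 genes, it held for 1 at 8 h (Pik3ip1) and 2 at 24 h (Pik3ip1 and Rps6kb1). The same genes were the ones whose log2 ratio had 1 sign on all 4 arrays, which 21.4 percent of genes showed at 8 h and 29 percent at 24 h.

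The log2 ratios of Pik3ip1 at 8 h were -1.11, -0.74, -0.68 and -0.68, with a mean of -0.80 ± 0.21 (SD, n = 4) and a 95% interval of -1.09 to -0.51. This and the other 95% intervals given here come from the limma fit, not from the SD beside them. That fit shares 1 estimate of the spread over both times and borrows from all genes, so an interval can be narrower than the SD implies. This missed the threshold, with a limma adjusted p of 0.116. The 8 h call was sensitive to 1 array: without 8 h replicate 2 the fitted ratio was -0.81 and the adjusted p 0.0168. Without that array, the number of all genes past the threshold at 8 h went from 3 to 1224. When any 1 array was left out, the 8 h ratio lay between -0.87 and -0.67, with an adjusted p up to 0.415. Over all genes, the ratios of 8 h replicate 2 correlated at 0.28 with those of 8 h replicate 1, with treated RNA in Cy3 on both. They correlated at -0.13 and -0.04 with 8 h replicates 3 and 4, which had it in Cy5. Replicate 1 correlated with these at 0.29 and 0.37. At 24 h, arrays with the treated RNA in the same dye correlated at 0.71 and 0.55, and the other pairs at 0.23 to 0.40. With a smaller offset of 10 in the background correction, chosen after the data were seen, the 8 h ratio of Pik3ip1 was -0.89 with an adjusted p of 0.0234. With median centring in place of loess it was -0.39, with an adjusted p of 0.308.

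At 24 h the log2 ratios of Pik3ip1 were -2.26, -1.73, -1.37 and -1.84, with a mean of -1.80 ± 0.36 (SD, n = 4), a 95% interval of -2.09 to -1.51 and a limma adjusted p of 6.87e-05. Only 5 of the 10872 genes had a lower ratio at 24 h, so that Pik3ip1 ranked 6 from the bottom. All 4 ratios at 24 h lay below all 4 at 8 h, a separation of the times that 9.37 percent of genes showed in either direction. The change between the times was -0.998 (SE 0.18, adjusted p 0.0332). Pik3ip1 was the 1 of 8 genes that passed this test, against 1.3 percent of all genes in either direction and 0.57 percent lower. Each time was hybridised on a slide of its own, so that time and slide cannot be told apart in this difference. The difference stayed between -1.16 and -0.83 when any 1 array was left out, but it no longer passed without 8 h replicate 3 or 4 or without 24 h replicate 1, 2 or 4 (adjusted p up to 0.126). With median centring in place of loess it was -1.08, with an adjusted p of 0.406. The log2 ratio at 24 h itself passed under each alternative tried, and lay between -1.96 and -1.63 without any 1 array.

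**Figure D1:**
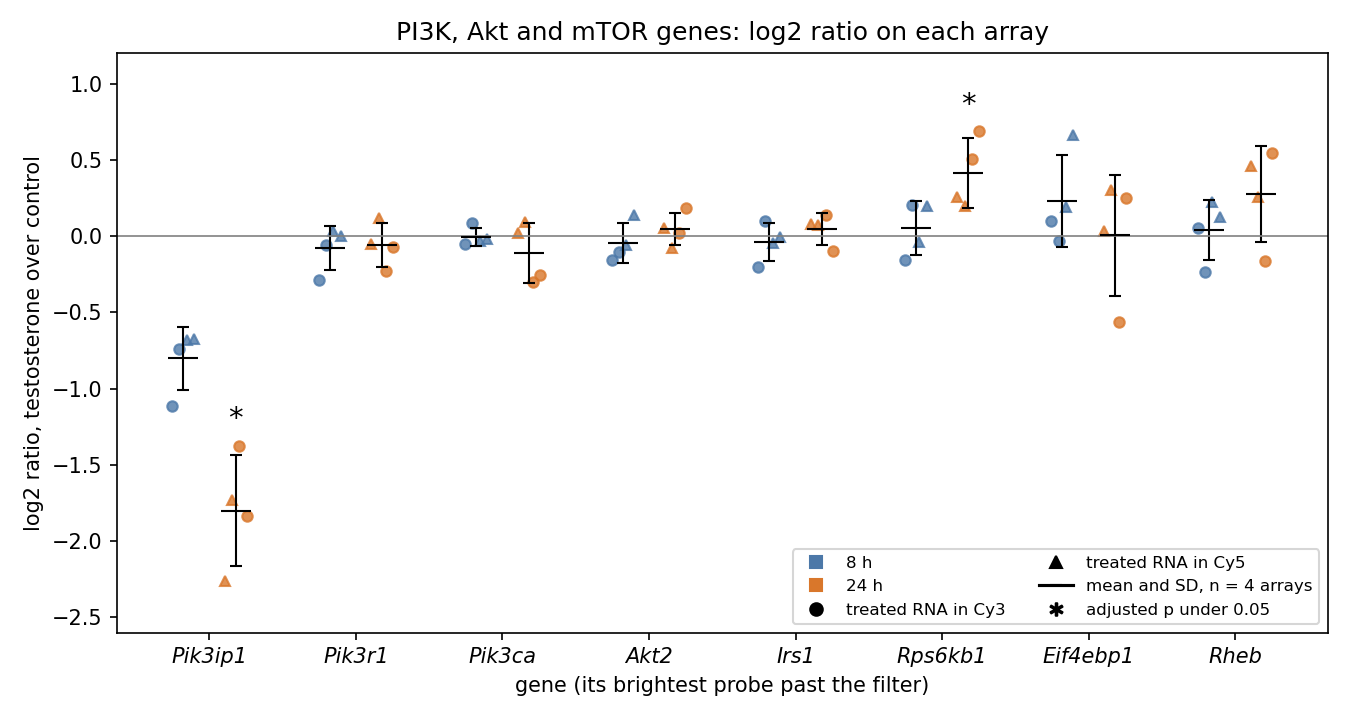
Log2 ratio of testosterone over control (vertical axis) for the 8 measured genes (horizontal axis) on each of 4 arrays at 8 h and 4 arrays at 24 h, with circles and triangles for the dye of the treated RNA and bars for the mean and SD. Pik3ip1 lies below 0 on all 8 arrays, Rps6kb1 above 0 on all 4 arrays at 24 h, and the other genes scatter around 0.

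Irs1, the docking protein that couples insulin and IGF-1 receptors to PI3K, was read by 2 probes (chr9:81633784-81633843 and chr9:81585685-81585744, rn4). The brighter probe had log2 ratios of -0.20, 0.10, -0.05 and -0.01 on the arrays at 8 h, then 0.08, 0.07, 0.14 and -0.10 on those at 24 h. Both signs occurred at both times, and the means of -0.04 ± 0.13 and 0.05 ± 0.10 (SD, n = 4) were smaller than their spread. This probe was well above background on 2 of 4 arrays in the treated and 1 of 4 in the control channel at 8 h. At 24 h it was so on 4 of 4 and 2 of 4, so that it passed the filter only through the treated group at 24 h. With the processed signals the ratios were -0.32 at 8 h and 0.28 at 24 h, with adjusted p of 0.449 and 0.534. The 95% interval at 24 h ran from -0.12 to 0.21. The second probe, spotted 10 times, was well above background in the treated channel on 3 of 4 arrays at 24 h but on 0 of 4 in the control channel. Its log2 ratios at 24 h were 0.08, 0.05, 0.18 and -0.07, with a mean of 0.06 ± 0.10 (SD, n = 4). Treated and control levels of this probe overlapped at 24 h, and its limma adjusted p over all kept probes was 0.691.

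Pik3r1 codes for p85 alpha, the main regulatory subunit of PI3K. Its single probe (chr2:32602673-32602731, rn4) gave log2 ratios of -0.29, -0.06, 0.03 and -0.0012 on the arrays at 8 h, and of -0.05, 0.12, -0.23 and -0.07 on those at 24 h. Treated and control levels overlapped at both times. The 95% intervals of the limma fit were -0.24 to 0.08 at 8 h and -0.22 to 0.10 at 24 h, with limma adjusted p of 0.561 and 0.688. With the scanner software's processed signals the ratios were -0.62 and -0.37, with adjusted p of 0.238 and 0.252.

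Pik3ca, the catalytic subunit p110 alpha, had 6 probes along chromosome 2 between positions 118640649 and 118672214 (rn4), the first and last of which lie 31506 bases apart by their starts. Of these, 4 passed the filter. The brightest of them (A_64_P066438) gave -0.0037 ± 0.06 at 8 h and -0.11 ± 0.20 at 24 h (SD, n = 4), where arrays with the treated RNA in Cy3 averaged -0.28 and those with it in Cy5 averaged 0.06. A_64_P111214 had a mean of -0.13 at 24 h and A_64_P130410 one of 0.02. A_64_P073033 stood below 0 on all 8 arrays, with -0.17, -0.05, -0.06 and -0.19 at 8 h and -0.38, -0.32, -0.14 and -0.02 at 24 h. Its means of -0.12 ± 0.07 and -0.21 ± 0.16 did not pass the limma test over all kept probes (adjusted p 0.403 and 0.103), where 0.0249 percent of probes did at 8 h and 6.91 percent at 24 h. A_64_P073033 was a dim probe, well above background in 9 of 16 channels. Among its channels at 24 h, 1 of 4 treated and 2 of 4 control ones reached that level. It was singled out from 6 probes for its sign. How many of all probes keep 1 side on 8 arrays was not counted. Of the 4 kept probes, 3 had a mean below 0 at 24 h. The mean of A_64_P130410 was 0.02 ± 0.18 (SD, n = 4), so that its sign was not settled. None of the 4 passed at 24 h. The brightest and the lowest-reading probe are printed to show which stretch each reads.
A_64_P066438: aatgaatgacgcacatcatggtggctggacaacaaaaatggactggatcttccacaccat
A_64_P073033: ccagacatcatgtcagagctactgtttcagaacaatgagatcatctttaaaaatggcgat
Of the remaining 2 probes, A_64_P101331 was well above background in 0 of 16 channels. A_42_P562984, spotted 10 times, was so in 5.

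**Figure D2:**
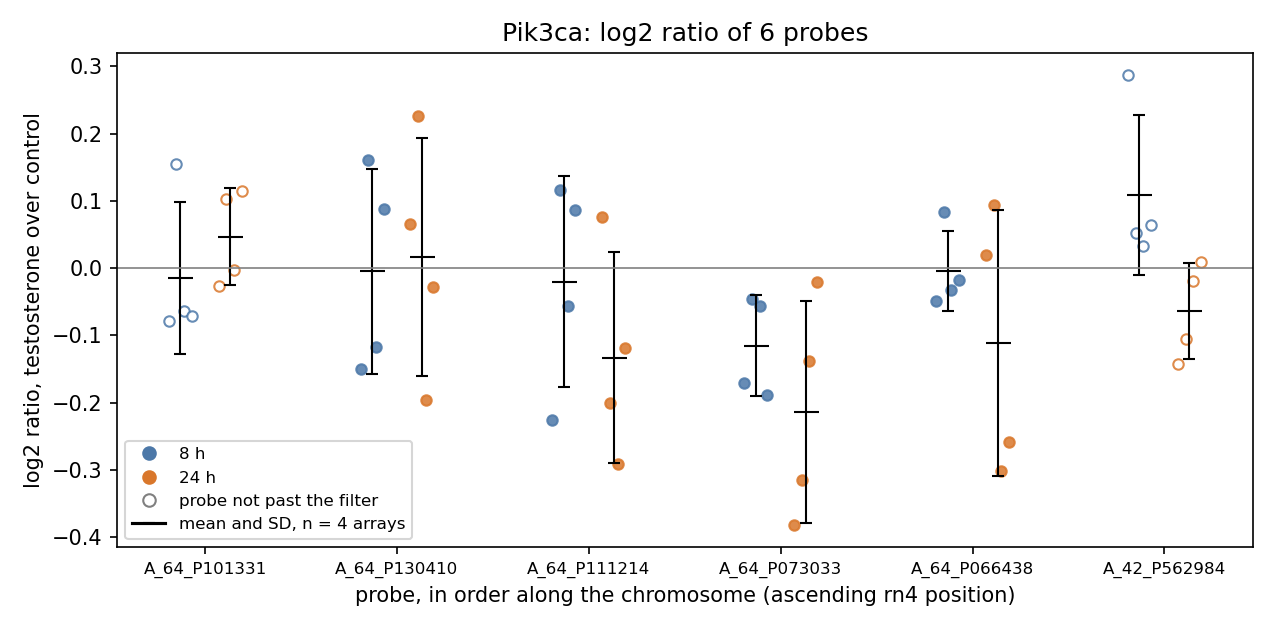
Log2 ratio of testosterone over control (vertical axis) for the 6 Pik3ca probes in their order along the chromosome (horizontal axis), on 4 arrays at 8 h and 4 at 24 h, with the mean and SD as bars and open points for the 2 probes that missed the filter. A_64_P073033 is the one probe with all 8 points below 0, and its mean at 24 h is -0.21. This probe is dim, well above background in 9 of 16 channels.

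Akt1 and Akt2 are the kinase isoforms that PI3K activates, with Akt2 known for its role in insulin-driven glucose uptake. Their probes read the same part of the coding sequence: bases 1 to 46 of the Akt1 probe and bases 15 to 60 of the Akt2 probe line up with 34 identical bases, 73.9 percent. They are shown because Akt1 could not be tested while Akt2 could, and capitals mark the bases that differ within that overlap.
Akt1 probe: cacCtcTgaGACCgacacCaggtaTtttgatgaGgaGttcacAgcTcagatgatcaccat
Akt2 probe: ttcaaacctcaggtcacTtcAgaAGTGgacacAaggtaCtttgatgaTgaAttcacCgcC
Akt1 (chr6:137641146-137641205, rn4) was well above background in 1 of 16 channels, a treated one at 24 h, although its probe is spotted 10 times. Without the filter, its log2 ratios in limma were -0.05 at 8 h (adjusted p 0.798) and 0.06 at 24 h (adjusted p 0.734), and the difference between the times was 0.11 (adjusted p 0.683). At this brightness a change of Akt1 was not measurable, which does not show that there was none. Akt2 (chr1:82725226-82725285, rn4) was well above background on 2 of 4 arrays in each channel at 8 h and on all 4 at 24 h. Its log2 ratios were -0.16, -0.10, -0.06 and 0.14 on the arrays at 8 h and 0.06, -0.08, 0.02 and 0.18 on those at 24 h, so that both signs occurred at both times. Its mean at 24 h was 0.05 ± 0.11 (SD, n = 4), with a 95% interval of -0.12 to 0.21, and with the processed signals it was 0.45 (adjusted p 0.198).

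Rheb, the GTPase that activates mTOR complex 1, was read by 1 probe for which the array files list no chromosome position. Its log2 channel levels at 24 h were 7.58, 7.72, 7.84 and 7.44 in the controls and 8.04, 7.97, 7.68 and 7.99 in the treated samples. Of the 4 treated samples, 3 lay above every control, and the treated sample of replicate 3 lay below its control. The log2 ratio was 0.04 ± 0.20 at 8 h and 0.27 ± 0.32 at 24 h (SD, n = 4), and the limma adjusted p at 24 h was 0.168. The unadjusted 95% interval of the limma fit at 24 h ran from 0.03 to 0.52, which includes rises of up to 0.52. With median centring the ratio at 24 h was 0.57 (adjusted p 0.108).

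Rps6kb1 codes for p70 S6 kinase, which mTOR complex 1 phosphorylates and which acts on ribosomal protein S6. Its probe (chr10:76657063-76657122, rn4) was well above background in all 16 channels. At 8 h the log2 ratios were -0.16, 0.20, -0.04 and 0.20, and the treated and control levels overlapped. At 24 h the log2 channel levels were 7.07, 7.01, 6.84 and 6.71 in the controls and 7.32, 7.21, 7.35 and 7.40 in the treated samples, which all lay above the highest control. The log2 ratios at 24 h were 0.25, 0.20, 0.51 and 0.69, with a mean of 0.41 ± 0.23 (SD, n = 4) and a limma adjusted p of 0.0291. Arrays with the treated RNA in Cy3 averaged 0.60 and those with it in Cy5 averaged 0.23. Between the times the ratio differed by 0.36 (adjusted p 0.217), so that the rise at 24 h was not shown to differ from the 8 h value. The call at 24 h was lost with the scanner software's own processed signals, where the ratio was 0.82 (adjusted p 0.0672), without 8 h replicate 3 and without any 1 of the 4 arrays at 24 h (0.33 to 0.47, adjusted p up to 0.135).

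Eif4ebp1 codes for 4E-BP1, which holds back cap-dependent translation until mTOR complex 1 phosphorylates it. Its probe (chr16:69110542-69110601, rn4) was read far above the background, at log2 channel levels between 11.11 and 12.08. At 8 h the log2 ratios were 0.10, -0.04, 0.19 and 0.66, with a mean of 0.23 ± 0.30 (SD, n = 4) and an adjusted p of 0.357; with median centring the mean was 0.71 (adjusted p 0.287). At 24 h they were 0.03, 0.30, -0.56 and 0.25, with a mean of 0.0050 ± 0.40. The array of 24 h replicate 3 lay below 0 and the others above, so that the spread at 24 h exceeded the mean. The 95% interval of the limma fit at 24 h ran from -0.28 to 0.29, narrower than the SD of the 4 arrays implies.

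**Figure D3:**
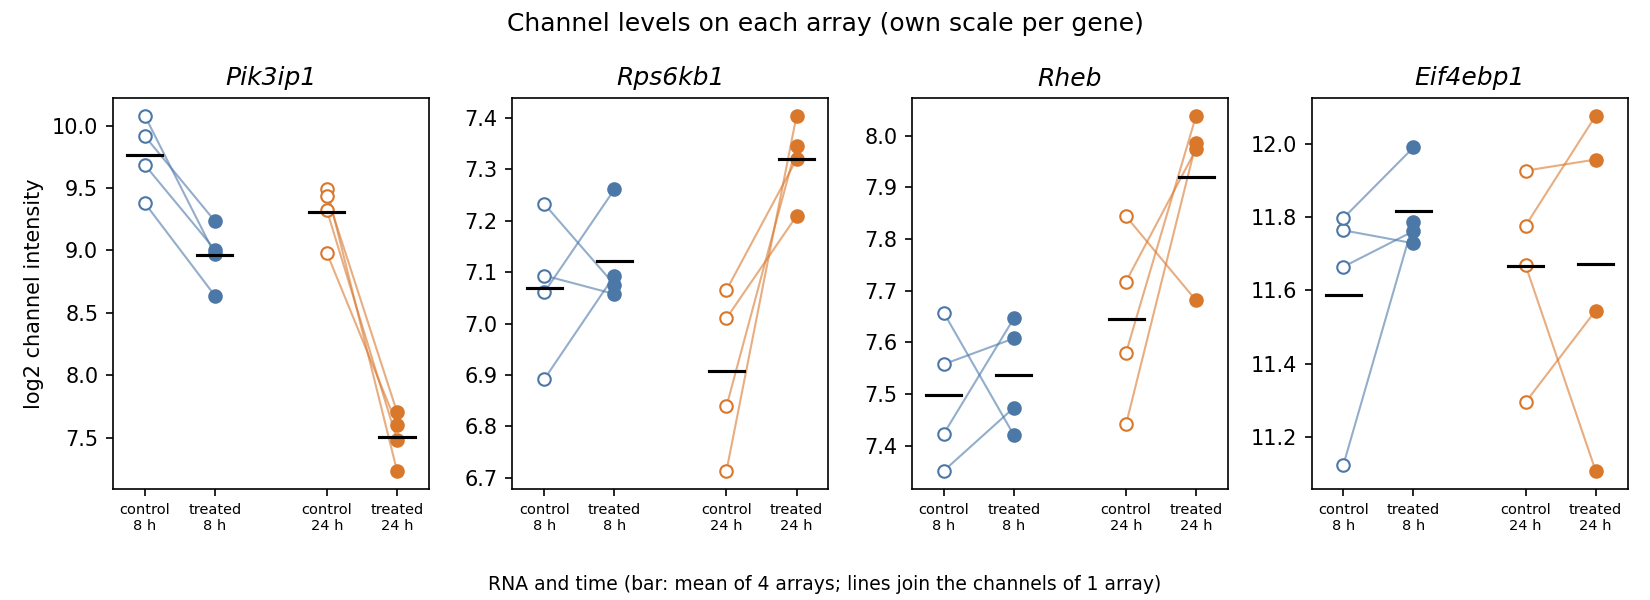
Log2 channel intensity (vertical axis, its own scale in each panel) of Pik3ip1, Rps6kb1, Rheb and Eif4ebp1 in control and treated RNA at 8 h and 24 h (horizontal axis), with lines joining the 2 channels of an array and bars for the mean of 4 arrays. For Pik3ip1 all lines fall, for Rps6kb1 all 4 lines at 24 h rise, and for Rheb and Eif4ebp1 the lines cross.

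Of 91 other genes of the pathway in 9 lists by role, 87 had a probe on the array and 56 were measured. At 8 h, 0 of the 56 passed the limma test, with 6 at an unadjusted p under 0.05, all lower, a level that 17.1 percent of all genes reached and 11 percent reached as lower. Their median log2 ratio was -0.0098. At 24 h, 1 passed higher and 4 passed lower, and 51 did not pass, with a median of 0.0013; over all genes 4.14 percent passed higher and 2.91 percent lower. With median centring in place of loess, the split of all genes at 24 h moved from 450 higher and 316 lower to 379 higher and 18 lower, and the median over all genes from 1.3e-05 to 0.155. Of the 56, 3 passed under that scaling, 2 higher and 1 lower.

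At 24 h, 1 of these genes passed higher. Rps6, the ribosomal protein that S6 kinases phosphorylate, rose by 0.50, 0.45, 0.44 and 0.42 (mean 0.45 ± 0.03, SD, n = 4; adjusted p 0.00623), and its second probe gave 0.52. Ribosomal protein genes have near-identical copies in the genome, which a single probe may not tell apart. The Rps6 call was lost without 24 h replicate 1, with the processed signals (adjusted p 0.0734) and with median centring (0.87, adjusted p 0.0840).

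A further 4 genes passed lower at 24 h: a regulator on the TSC and Rheb side, 2 genes of amino acid sensing at the lysosome and a kinase. Ddit4l, also called Redd2, a stress-responsive inhibitor of mTOR complex 1, gave -1.50, -1.49, -1.42 and -0.68 (mean -1.27 ± 0.39, SD, n = 4; adjusted p 0.000388), a level 2.42-fold lower than in controls. Its 8 h values were 0.03, -0.70 and -0.70 on 3 arrays, since the spot of 8 h replicate 1 was left out for an outlier mark, and the fitted 8 h ratio was -0.36. It was 1 of the 56 genes that passed between the times, with a change of -0.91 (adjusted p 0.0446), a call that was lost in 10 of 18 alternatives, whereas the call at 24 h held in 19 of 19. Flcn, folliculin, which acts on Rag GTPases at the lysosome, gave -0.77, -0.65, -0.68 and -0.35 (adjusted p 0.00392), and the call was lost with median centring (-0.27, adjusted p 0.411). Sgk1, a kinase related to Akt, gave -0.24, -0.46, -0.56 and -0.72 (adjusted p 0.0168), and the call was lost without 24 h replicate 2, 3 or 4 and with median centring (adjusted p up to 0.118). Nprl2, a subunit of the GATOR1 complex that restrains mTOR complex 1, gave -0.48, -0.45, -0.55 and -0.15 (adjusted p 0.0346), while its second probe gave -0.18 and did not pass. Its call was lost without 8 h replicate 4, without 24 h replicate 1, 2 or 3, and with median centring (-0.15, adjusted p 0.628).

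By role, 1 of 4 kinases beside Akt, 1 of 5 regulators on the TSC and Rheb side, 2 of 11 genes of lysosomal amino acid sensing and 1 of 11 mTOR complex 1 targets passed at 24 h. None of the 5 receptors and adaptors, the 3 other PI3K subunits, the 4 phosphatases, the 8 mTOR complex subunits or the 5 Akt targets and FoxO factors passed at 24 h. Over all genes 7.05 percent passed at 24 h. In lists of 3 to 11 genes such counts are a description and show no pattern by role. At an unadjusted p under 0.05 there were 11 of the 56 at 24 h, 5 higher and 6 lower, beside 22.1 percent of all genes. Insr, the insulin receptor, gave -0.10 ± 0.02 at 24 h (adjusted p 0.482), below 0 on all 4 arrays, and its second kept probe gave -0.23 (adjusted p 0.0750 over all kept probes). Tsc2, the GTPase activator that acts on Rheb, gave -0.06 ± 0.05 (adjusted p 0.773). Foxo3, a transcription factor that Akt keeps out of the nucleus, gave -0.25 ± 0.04, below 0 on all 4 arrays, with an adjusted p of 0.0847. Its probe was well above background at 24 h on 1 of 4 arrays in the treated and 4 of 4 in the control channel. Mtor and Igf1r were well above background in 0 of 4 arrays of each group, and Tsc1 and Irs2 in at most 2, so that these 4 genes were not tested. Pik3cg, Rragb, Foxo1 and Tbc1d4 had no probe under these names on the array, so they were not analysed here.

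**Figure D4:**
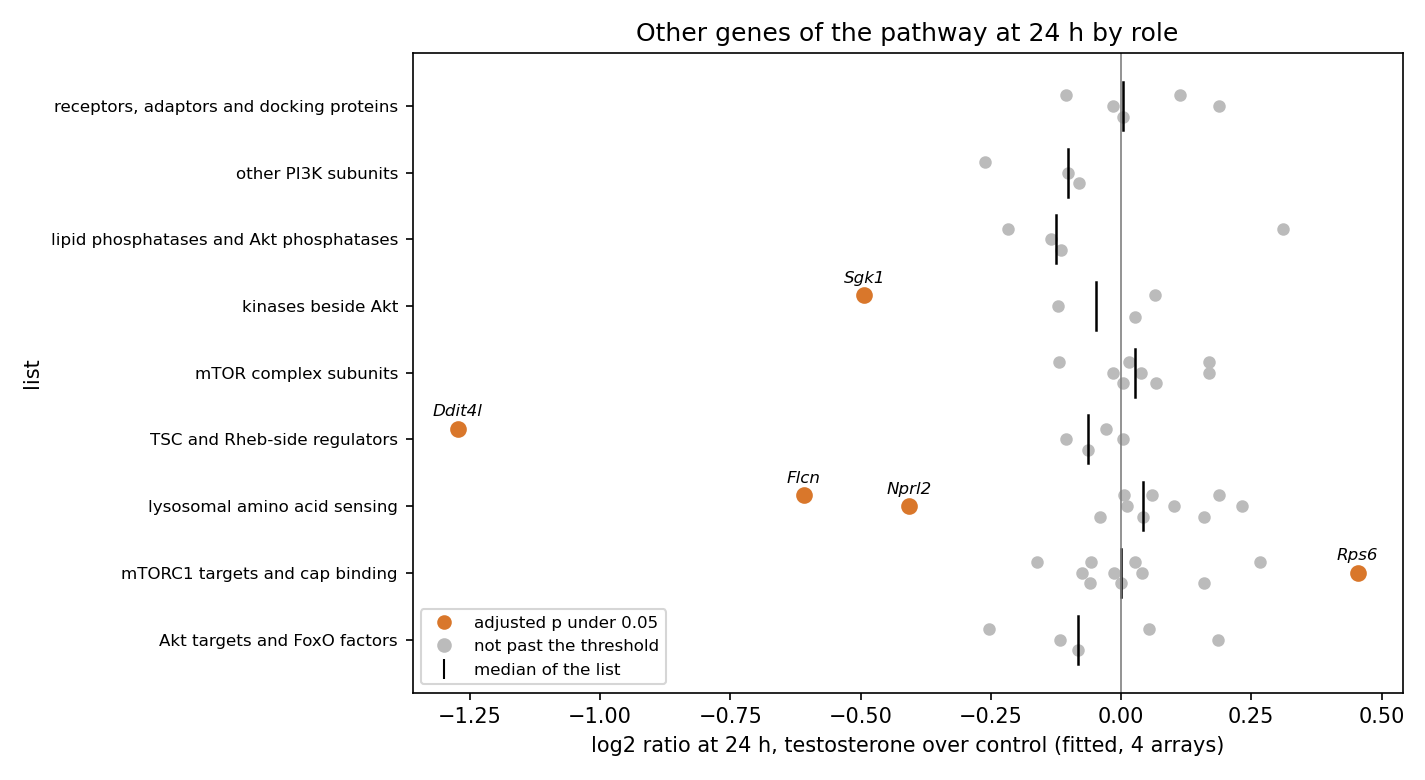
Fitted log2 ratio of testosterone over control at 24 h (horizontal axis) for the 56 measured genes in 9 lists by role (vertical axis), with coloured points for the genes past an adjusted p of 0.05 and a black bar for each list's median. Rps6 lies to the right, and Ddit4l, Flcn, Sgk1 and Nprl2 to the left, while the medians of the 9 lists lie between -0.12 and 0.04.

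The 5 named genes whose log2 ratios over the 8 arrays were most like those of Pik3ip1 were Dus2 (Pearson r 0.988), Otud7b (0.976), Mrpl44 (0.960), Anp32a (0.958) and Saysd1 (0.957). These were picked from all genes tested for their likeness over 8 arrays that fall into 2 times and share slides, so the values are a description. Their own changes were smaller than that of Pik3ip1: at 24 h the log2 ratio was -0.09 for Dus2, -0.37 for Otud7b, -0.56 for Mrpl44, -0.14 for Anp32a and -0.04 for Saysd1.

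Marker genes of other cell types were read beside these results. At 8 h, 0 of the 53 measured genes of the 9 marker lists passed in limma. At an unadjusted p under 0.05 there were 17 (1 higher and 16 lower), a level that 17.1 percent of all genes reached and 11 percent reached as lower. At 24 h some passed, as given by list below, while over all genes 4.14 percent passed higher and 2.91 percent lower. An unadjusted p under 0.05 was reached by 19, beside 22.1 percent of all genes. Of the 11 measured muscle fibre markers, 2 passed lower (Acta1 and Actn3) and the list's median was -0.36. The log2 of the list's summed level ran from 17.07 to 17.32 in treated and from 17.40 to 17.63 in control samples. At 8 h the list's median log2 ratio was -0.02, 0.60, -0.35 and -0.03 on replicates 1, 2, 3 and 4. Of 8 measured macrophage markers, 4 passed higher at 24 h (Cd163, C1qa, C1qc and Lyz2), with a median of 0.40 and summed levels of 12.23 to 12.67 in treated and 11.84 to 12.19 in control samples. Of 8 fibroblast markers, 2 passed higher (Col1a1 at 1.54 and Col3a1 at 1.48), while the list's median was 0.06. Fbn1 (0.20) and Mfap5 (0.13) lay above 0 without passing. Lum (-0.25), Dpt (-0.05), Pdgfra (-0.03) and Dcn (-0.0021) lay below 0. Of 4 adipocyte markers, 1 passed higher (Fabp4 at 0.43). Of 5 endothelial markers, 1 passed higher, and 0 of the 7 smooth muscle, 3 satellite cell and 5 nerve markers passed. Among the macrophage markers, Mrc1 and Cd14 were too dim to be tested. Erythrocyte markers passed in neither direction, with array medians between 0.05 and 1.85 at 24 h and between -2.20 (replicate 3) and 0.33 (replicate 2) at 8 h. The part of these marker changes in the results on Pik3ip1, Rps6kb1 and the other pathway genes was not tested, and in such bulk RNA fewer cells of a type and less RNA per cell cannot be told apart.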

How the data were processed

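RNA of testosterone-treated and control castrated rats was read on 8 Agilent arrays with 2 colours each. The deposited scanner files hold spot intensities, written by Agilent Feature Extraction, whose version the submitters' processing notes give as 9.5.3.1, with the software's processed signals beside the mean and background signals. The authors' deposited value table holds log2 ratios that match the log2 ratio of those processed signals, turned to treated over control, to within 1.35e-05, with no centring (array medians -0.144 to 0.0896). The annotation behind the array's rn4 positions is not given in the sources used here, and exon or UTR positions of the probes were not analysed here.

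From the mean and background intensities, backgrounds were corrected with normexp (offset 50) and arrays normalized by loess in limma 3.58.1 under R 4.3.3, with control and outlier-marked spots at weight 0. An offset of 50 draws the ratios of dim probes toward 0. Spots were averaged per probe, the brightest probe past the filter stood for its gene, and the other kept probes were fitted over all probes. Genes were named through RefSeq accessions (18384 probes), symbols or synonyms. The model held a coefficient for each time and 1 for dye. P-values are two-sided and Benjamini-Hochberg adjusted over all 10872 genes at a threshold of 0.05. They measure only the spread between these arrays, which may be partly technical.

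The members and lists were chosen with earlier results of these data known. Named genes are the 9 members with every probe, each pathway gene past the threshold, pathway genes named whatever their values (Mtor, Tsc1, Tsc2, Insr, Igf1r, Irs2 and Foxo3), and the 5 genes most like the member with the largest change. Channel levels are log2 intensities after loess and Aquantile and were not compared between probes. Between 34.8 and 48.9 percent of gene spots were well above background per channel; the number of arrays limits the precision. The SD of the log2 ratio over genes was 0.444 on 8 h replicate 1, 0.180 to 0.201 on the other arrays at 8 h and 0.236 to 0.306 at 24 h. A further gene of the lists is not reported here.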

Additional observations from a re-analysis of the deposited data

Results flagged for a closer look

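The log2 ratio of Pik3ip1 on 8 h replicate 1 was -1.11, apart from the other 3 arrays at -0.74 to -0.68. Its gap to the nearest array was 0.855 of the range of the 4 values, above Dixon's 95% critical value for 4 samples. Of 16 groups of 4 values checked this was the 1 beyond that limit, and chance passes it in about 1 in 20 groups. The same array had the widest spread of log2 ratios over genes, with an SD of 0.444; the part of that spread in the Pik3ip1 value was not tested.

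The ratio of Pik3ip1 differed between the times by -0.998 in the limma contrast (adjusted p 0.0332), with all 4 arrays at 24 h below all 4 at 8 h.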

How the results depend on the processing

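The fall of Pik3ip1 at 24 h kept its direction and its side of the threshold under all 19 alternatives, from -1.47 with median centring to -2.19 with the processed signals. Its 8 h ratio passed with the replicate block (-0.80, adjusted p 0.0439) and with offset 10 (-0.89). Its change between the times did not pass with median centring (-1.08). Rps6kb1 at 24 h did not pass with the processed signals or the authors' deposited table (0.82). Left-out arrays gave 0.33 to 0.47 for Rps6kb1 at 24 h and -1.16 to -0.83 for the change of Pik3ip1 between the times. The cause of these changes was not tested.

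Small ratios changed sign. Pik3ca at 8 h was 0.0082 with the processed signals and the authors' table, 0.15 with median centring and 0.0032 with offset 10. Akt2 at 8 h was 0.0014 with array weights. With median centring at 24 h, Pik3r1 was 0.012 and Pik3ca 0.053. Eif4ebp1 at 24 h was -0.21 with the processed signals and the authors' table. Without 1 array, ranges that crossed 0 were -0.068 to 0.037 for Pik3ca, -0.10 to 0.017 for Irs1, -0.038 to 0.17 for Rps6kb1 and -0.0077 to 0.11 for Rheb at 8 h, -0.015 to 0.10 for Akt2 and -0.17 to 0.16 for Eif4ebp1 at 24 h, and -0.027 to 0.066 for Pik3r1 between the times.

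Counts past the threshold at 8 h, 3 over all genes, were 1 with the processed signals, the authors' table or no dye coefficient, 0 with median centring or each time fitted alone, 8 with the replicate block, 21 with offset 10 and 0 to 1224 without 1 array. The members called at 8 h were 1 with the replicate block or offset 10 and 0 to 1 without 1 array, and the other pathway genes 0 to 5. At 24 h the count of 766 became 397 with median centring, 1602 with array weights, 1589 with each time fitted alone and 190 to 1240 without 1 array. The members called at 24 h were 1 with the processed signals or the authors' table and 1 to 2 without 1 array. The other pathway genes called at 24 h were 3 with median centring, 9 with array weights and 3 to 7 without 1 array. Between the times the count of 141 became 86 with the processed signals or the authors' table, 0 with median centring, 428 with array weights, 310 with the replicate block, 224 with offset 10 and 29 to 590 without 1 array. The members called between the times were 0 with median centring and 0 to 1 without 1 array. The other pathway genes called between the times were 0 with the processed signals, the authors' table, median centring, no dye coefficient or the replicate block, 3 with array weights and 0 to 3 without 1 array.

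Replicate numbers were not taken to pair the arrays, since deviations of same-numbered arrays from their group means correlated between -0.26 and 0.17. Residuals of the fit with the dye coefficient correlated at 0.19 to 0.34, but that fit makes the residuals of replicates 1 and 2 sum to the same value at both times, and likewise those of 3 and 4. The replicate number as a block changed no member's call other than that of Pik3ip1 at 8 h. Akt1, the brighter Irs1 probe and Akt2 were dim, well above background in 1, 9 and 12 of 16 channels, which limits what a ratio near 0 shows. The offset of 10 was added after the data were seen.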

Other observations

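Repeated spots show how far a single reading of a dim probe can vary within an array. The 10 Akt1 spots had log2 ratios with an SD of 0.08 to 0.16 per array, and those of the dim Irs1 probe one of 0.09 to 0.22, while the SD of the array means over 4 arrays at 24 h was 0.06 for Akt1.

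Some genes near the pathway that did not pass kept 1 side on all 4 arrays at 24 h, as 29 percent of all genes did. Insr lay between -0.13 and -0.08 and Foxo3 between -0.30 and -0.21, with the treated channel of Foxo3 well above background on 1 of 4 arrays.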
